A study of Homo sapiens with 6 samples.

Results

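The EGFR family in these data comprised 10 genes, chosen by name, namely the receptors EGFR, ERBB2 and ERBB3 and the ligands AREG, EREG, HBEGF, TGFA, EGF, BTC and NRG1. All 10 were found by symbol among the 58302 genes of the deposited table, and all 10 passed the filter on low counts. RNA was sequenced from MDA-MB-231-DR, a derivative of the triple-negative human breast cancer line MDA-MB-231 that resists doxorubicin and is maintained in medium with doxorubicin at a low concentration. Control cells, whose labels name no treatment (3 libraries), were compared with cells given cyperotundone (CYT), a compound of sedge (3 libraries), to look for targets of CYT in drug-resistant cells. The CYT dose and time of these libraries are not given in the sources used here, and parental cells are not analysed here.

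EGFR and its relatives are receptor tyrosine kinases of the cell surface. A ligand brings receptors together in pairs, the kinase domains phosphorylate each other, and adaptors then switch on the RAS to ERK and the PI3K to AKT routes. ERBB2 has no known soluble ligand and acts as a partner receptor, ERBB3 has a weak kinase and couples strongly to PI3K, and the ligands are made as membrane precursors that proteases such as ADAM17 cut free. Triple-negative breast cancers lack ERBB2 amplification and often express EGFR.

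In CYT-treated cells EGFR fell 6.27-fold, the ERBB3 and ERBB4 ligand NRG1 fell 4.46-fold and the EGFR ligand AREG fell 2.29-fold. These 3 of the 10 genes were called lower, and 0 were called higher. In the whole fit 28.6% of 15572 tested genes were called, 12.9% as lower and 15.7% as higher, against 30% of the family in either direction. The share of the family called was thus near that of all genes. The other 7 genes were not called, with estimates from 1.78-fold lower for ERBB2 to 4.40-fold higher for BTC. A call means an adjusted p under 0.05 from edgeR's quasi-likelihood test of raw counts, with Benjamini-Hochberg adjustment over all 15572 genes. Levels are given in CPM, the raw count scaled to the library size after TMM normalization.

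Total counts were 14050849 to 17770102 in control and 13056270 to 14106017 in CYT libraries, and the 10 genes held 0.0502% to 0.0642% of them in control and 0.0249% to 0.0323% in CYT libraries. CYT replicate 2 stood furthest from its group, with r = 0.904 and 0.905 across genes to the other CYT libraries, against 0.970 between those. Without it EGFR and NRG1 were called with log2 fold changes of -2.34 and -1.88, and 4 of the 10 genes were called lower, EREG being the addition, in a fit that called 35.6% of all tested genes, 17.0% as lower. The line's mesenchymal markers VIM, CD44, FN1, AXL and SPARC were counted in every library, with a summed level of 3407 to 3746 CPM in control and 1684 to 1722 CPM in CYT libraries, and 3 of 5 were called lower. ESR1 and PGR had at most 4 counts in any library. The 10 luminal markers summed to 673 to 1158 CPM in control and 212 to 523 CPM in CYT libraries. Of these only KRT8, KRT18, KRT19, GATA3 and FOXA1 passed the filter on low counts and were tested. KRT19 was called lower (mean of 287 CPM in control and 26.3 CPM in CYT libraries), and the others were not called. The 6 fibroblast markers summed to 19.6 to 36.1 and 5.48 to 6.84 CPM (2 called lower), with DCN at 0 in every library. For 6 leukocyte markers the sums were 8.05 to 24.2 and 8.83 to 19.0 CPM, with CD3E at 0 in every library. Only CD14 and CD68 among them were tested. CD14 was called higher (means of 0.733 and 3.90 CPM), and CD68 was not called (12.9 and 8.24 CPM). Endothelial markers, 4 genes, summed to 1.86 to 3.59 and 2.75 to 4.93 CPM. Of PECAM1, VWF and KDR, which were tested, only KDR was called, as higher (means of 0.288 and 1.42 CPM). Over all tested genes 12.9% were called lower and 15.7% higher. The part of these marker levels in the results was not tested. In such bulk libraries, fewer cells of a type and less RNA per cell cannot be told apart.

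The genes lie on 7 chromosomes of hg38. EREG (chromosome 4, 74365143 to 74388751, plus strand) and AREG (74445134 to 74455009, plus strand) are neighbours, 56382 bases apart, in a cluster that spans 486214 bases from EPGN (74308473 to 74315307) to BTC (74744759 to 74794686, minus strand). EGFR spans 55019021 to 55211628 on the plus strand of chromosome 7. The 250 bases before the RefSeq transcription start (GRCh38.p14, plus strand) are shown for EGFR, which had the largest fall of the family, and for AREG and EREG, neighbours of which AREG was called lower and EREG was not. Capitals mark matches on either strand to TATAAA, to TGACGTCA (a cyclic AMP response element), to TGANTCA (an AP-1 site), to GGGCGG (a GC box) and to CCAAT. The window of EGFR is chr7:55018767-55019016, that of AREG is chr4:74444886-74445135 and that of EREG is chr4:74364895-74365144.
EGFR: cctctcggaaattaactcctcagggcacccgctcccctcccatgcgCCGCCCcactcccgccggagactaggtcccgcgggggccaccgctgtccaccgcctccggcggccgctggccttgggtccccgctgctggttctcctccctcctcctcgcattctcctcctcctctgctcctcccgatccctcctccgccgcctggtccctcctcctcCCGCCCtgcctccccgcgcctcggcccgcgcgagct
AREG: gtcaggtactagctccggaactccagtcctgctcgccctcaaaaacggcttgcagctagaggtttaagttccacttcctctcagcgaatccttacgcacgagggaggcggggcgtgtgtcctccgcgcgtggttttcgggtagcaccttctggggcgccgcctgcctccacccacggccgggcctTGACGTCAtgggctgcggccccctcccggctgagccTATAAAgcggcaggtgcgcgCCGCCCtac
EREG: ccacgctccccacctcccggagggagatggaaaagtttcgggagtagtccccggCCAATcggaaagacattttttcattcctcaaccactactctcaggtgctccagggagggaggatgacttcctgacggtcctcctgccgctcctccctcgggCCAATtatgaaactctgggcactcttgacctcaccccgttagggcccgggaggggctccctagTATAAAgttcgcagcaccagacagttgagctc
AREG and EREG both had a TATAAA match, which starts at position -29 and -32, counted back from the start site. That motif was present in 10.7% of 35116 such windows in the reference table. AREG also held the palindrome TGACGTCA at -65, found in 1.65% of windows, and a GC box at -9. EREG held CCAAT at -196 and -95, a motif present in 32% of windows. The EGFR window had no TATAAA and held GC boxes at -204 and -36, as did 42.6% of windows at least once. No match to TGANTCA, present in 6.57% of windows, was in these 3 windows. The matches are descriptions of sequence alone. Of the 10 genes, 8 had a window in the table.

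Among the receptors, EGFR (ENSG00000146648), the receptor of 6 of the ligands, had 3104, 3090 and 1820 raw counts in the control libraries (replicates 1 to 3, the order used throughout) and 486, 191 and 376 in the CYT libraries. Every CYT library was far below every control library, and the lowest value was that of CYT replicate 2. In CPM the level was 163 ± 30.8 in control and 25.9 ± 10.9 after CYT (SD, n = 3 each). This is a log2 fold change of -2.65 (standard error 0.40, edgeR adjusted p = 0.00186), with a 95% interval of 3.38-fold to 11.6-fold lower. By the size of its fall EGFR ranked 228 of 15572 genes. The antisense gene EGFR-AS1, which overlaps it, had at most 4 counts in any library.

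ERBB2 (ENSG00000141736, chromosome 17, 39687914 to 39730426, plus strand) had 1327, 720 and 947 counts in control and 525, 236 and 653 in CYT libraries. Its CPM values were 82.3, 38.3 and 68.1 in control and 37.0, 16.8 and 51.9 in CYT-treated cells. The groups overlapped, because control replicate 2 lay below CYT replicate 3, and replicate 2 was the lowest library in both groups. ERBB2 was not called, with a log2 fold change of -0.84 (standard error 0.45, edgeR adjusted p = 0.190, 95% interval from -1.84 to 0.17). When the replicate number was entered as a block it was called lower (log2 fold change -0.91, edgeR adjusted p = 0.0234). The log2 fold change was -0.50 without CYT replicate 2 and -1.19 without CYT replicate 3, with no call in either fit. The coding genes MIEN1 and PGAP3 overlap ERBB2 on the opposite strand. MIEN1 had 304 to 608 counts in control and 405 to 1151 in CYT libraries, PGAP3 had 58 to 109 and 153 to 351, and without a stated use of strand in counting the reads of the shared bases cannot be told apart.

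ERBB3 (ENSG00000065361, chromosome 12, 56079857 to 56103505, plus strand) moved the other way in its estimate. Its counts were 110, 95 and 100 in control and 116, 129 and 135 in CYT libraries, or 6.36 ± 1.14 against 9.36 ± 1.28 CPM (SD, n = 3 each). All 3 CYT libraries lay above all 3 control libraries, yet the gene was not called (log2 fold change 0.56, standard error 0.33, edgeR adjusted p = 0.231, 95% interval from -0.18 to 1.30).

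**Figure D1:**
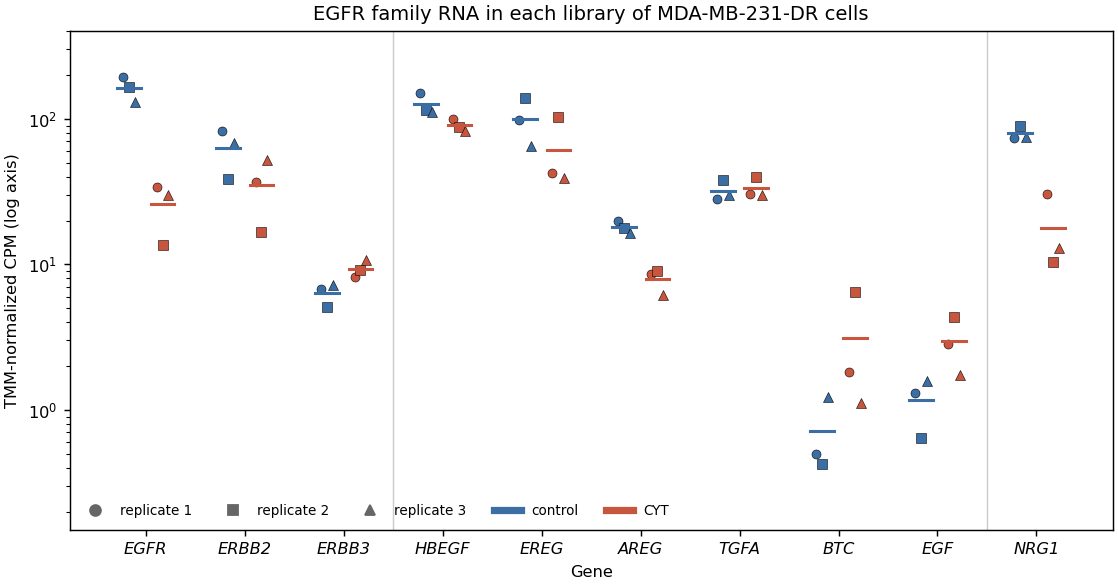
TMM-normalized CPM of the 10 genes in each library on a log axis, with control in blue, CYT in red, a marker shape per replicate number and a bar at each group mean. EGFR, AREG, HBEGF and NRG1 show no overlap with control on the lower side, and ERBB3 and EGF show none on the higher side.

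Among the ligands of EGFR, HBEGF (ENSG00000113070, chromosome 5, 140332843 to 140346631, minus strand), a heparin-binding ligand and the diphtheria toxin receptor, had 2445, 2151 and 1550 counts in control and 1419, 1243 and 1032 in CYT libraries. Its CPM of 152, 115 and 111 in control was above the 100.1, 88.5 and 82.0 of CYT-treated cells in every library. HBEGF was not called (log2 fold change -0.48, standard error 0.28, edgeR adjusted p = 0.225, 95% interval from -1.11 to 0.14).

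EREG (ENSG00000124882), or epiregulin, a ligand of EGFR and ERBB4, had 1573, 2597 and 904 counts in control and 601, 1439 and 491 in CYT libraries. Replicate 2 was the highest library in both groups, at 138 CPM in control and 102 CPM in CYT-treated cells. CYT replicate 2 thereby lay above 2 of the 3 control libraries, and the groups overlapped. EREG was not called (log2 fold change -0.71, standard error 0.44, edgeR adjusted p = 0.260, 95% interval from -1.70 to 0.28). It was called lower with the replicate number as a block (log2 fold change -0.79, edgeR adjusted p = 0.0372) and without CYT replicate 2 (log2 fold change -1.31, edgeR adjusted p = 0.0172).

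AREG (ENSG00000109321), or amphiregulin, a ligand of EGFR that is important for growth of the mammary ducts, had 321, 333 and 230 counts in control and 121, 126 and 77 in CYT libraries. The level was 18.1 ± 1.71 CPM in control and 7.87 ± 1.54 CPM in CYT-treated cells (SD, n = 3 each), and no CYT library reached any control library. Its log2 fold change was -1.20 (standard error 0.32, edgeR adjusted p = 0.0199, 95% interval from 1.40-fold to 3.74-fold lower). The call did not hold in every fit that left out a library. It was lost without control replicate 1 (edgeR adjusted p = 0.0654), control replicate 3 (0.0510), CYT replicate 1 (0.0535) and CYT replicate 3 (0.0813). The log2 fold changes were from -1.28 to -1.02 in these fits, which called 17.6% to 20.7% of all tested genes, against 28.6% with all libraries.

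TGFA (ENSG00000163235, chromosome 2, 70447280 to 70554193, minus strand), a ligand of EGFR alone, had 452, 719 and 417 counts in control and 429, 559 and 375 in CYT libraries. In CPM these were 28.0, 38.3 and 30.0 in control and 30.3, 39.8 and 29.8 in CYT-treated cells, so the groups covered nearly the same range, again with replicate 2 highest in both. The log2 fold change was 0.052 (standard error 0.29, edgeR adjusted p = 0.913), and its 95% interval ran from -0.60 to 0.71. The sign of this estimate changed in 4 of 13 alternative fits.

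BTC (ENSG00000174808), or betacellulin, a ligand of EGFR and ERBB4, and EGF (ENSG00000138798, chromosome 4, 109912884 to 110012266, plus strand), the founding ligand of the family, had the fewest counts of the family. BTC had 8, 8 and 17 counts in control and 26, 90 and 14 in CYT libraries. CYT replicate 2 was far above the other libraries, and CYT replicate 3 lay between the control libraries in CPM. The estimate was 4.40-fold higher, with a 95% interval from 1.40-fold to 13.9-fold, but it was not called (edgeR adjusted p = 0.0558). Leaving out CYT replicate 3 gave a call (log2 fold change 2.54, edgeR adjusted p = 0.0395), and without CYT replicate 2 the log2 fold change was 1.06 against 2.14 with all libraries. EGF had 21, 12 and 22 counts in control and 40, 61 and 22 in CYT libraries. The nearest libraries of the groups were 1.58 CPM in control replicate 3 and 1.75 CPM in CYT replicate 3. EGF was not called (log2 fold change 1.35, standard error 0.53, edgeR adjusted p = 0.0851).

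NRG1 (ENSG00000157168, chromosome 8, 31639386 to 32767959, plus strand), or neuregulin 1, binds ERBB3 and ERBB4 and not EGFR. It had 1200, 1677 and 1047 counts in control and 430, 145 and 163 in CYT libraries. The control libraries lay close together at 79.7 ± 8.36 CPM (SD, n = 3), and the CYT libraries were all lower at 30.3, 10.3 and 13.0 CPM. NRG1 was called lower at a log2 fold change of -2.16 (standard error 0.43, edgeR adjusted p = 0.00559), with a 95% interval of 2.29-fold to 8.66-fold lower. Without CYT replicate 1, its highest CYT library, the log2 fold change was -2.78 (edgeR adjusted p = 0.00358). The 4 genes that the annotation places within NRG1 had 0 counts in every library.

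**Figure D2:**
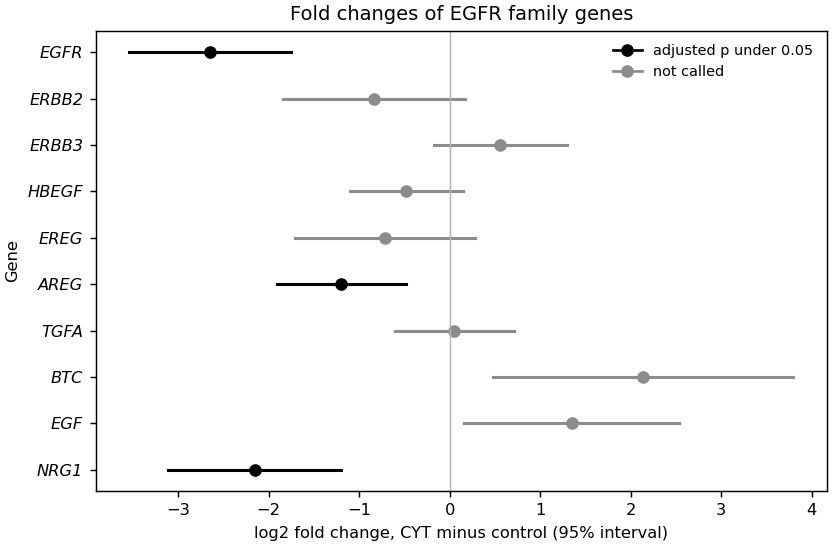
Log2 fold change of each gene, CYT minus control, with its 95% interval from edgeR's quasi-likelihood fit, in black where the adjusted p was under 0.05 and in grey otherwise. EGFR (-2.65), NRG1 (-2.16) and AREG (-1.20) lie in black below 0, and the intervals of BTC and EGF lie above 0 without a call after adjustment.

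The median log2 fold change of the 10 genes was -0.60, beside 0.0064 for all tested genes, with 6 estimates below 0 and 4 above. Groups did not overlap in 4 genes that were lower (EGFR, AREG, HBEGF and NRG1) and in 2 that were higher (ERBB3 and EGF). Over all tested genes 46.1% showed no overlap, 22.7% on the lower side and 23.4% on the higher side. For a single gene, the exact permutation test over libraries cannot give a two-sided p under 0.1 with 3 against 3, and it gave 0.1 for each of these 6. EGFR and NRG1 kept their call in each of the 13 alternative fits, with log2 fold changes from -2.91 to -2.08 for EGFR and from -2.78 to -1.37 for NRG1. With the replicate number as a block, 5 members were called lower and 0 higher, the additional ones being ERBB2 and EREG. That fit called more of all tested genes too, 39.9% in either direction and 19.8% as lower.

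**Figure D3:**
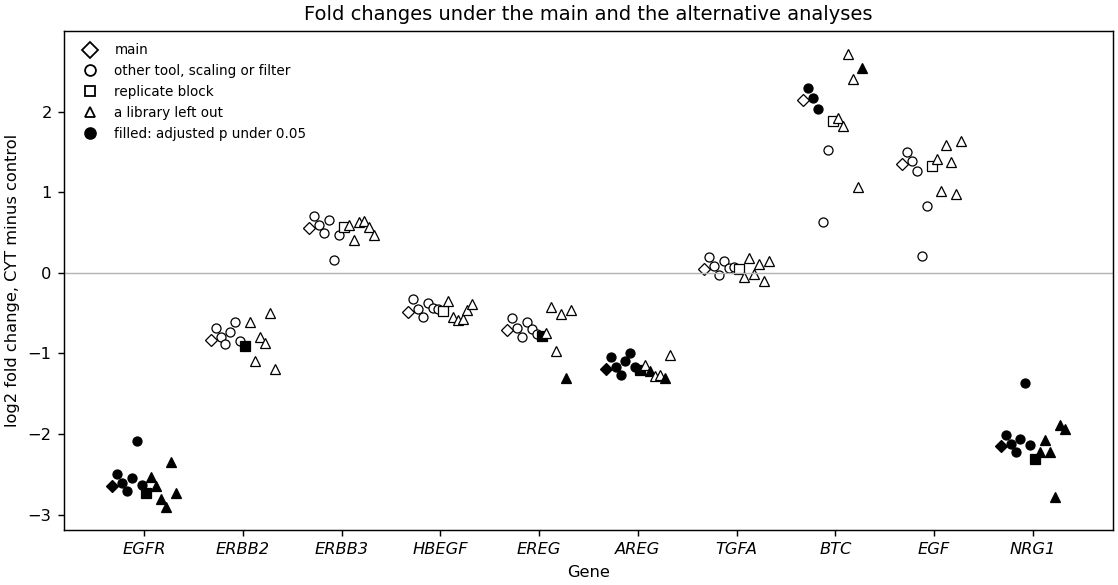
Log2 fold change of each gene, CYT minus control, in the main fit (diamond) and in the alternative fits, filled where the adjusted p was under 0.05. EGFR and NRG1 are filled throughout, AREG is open in 4 of the fits that leave out a library, and TGFA lies on both sides of 0.

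Same-numbered libraries also gave a direct view of the spread. The difference in log2 CPM between the CYT and control library of the same number was -2.49, -3.60 and -2.13 for EGFR in numbers 1 to 3. For NRG1 it was -1.29, -3.11 and -2.54, and for AREG it was -1.22, -0.98 and -1.43. EGFR and NRG1 thus differed most in number 2 and AREG least. ERBB2 was lower in all 3 numbers (-1.15, -1.19 and -0.39), as was EREG (-1.20, -0.43 and -0.74). HBEGF was the steadiest of the lower genes, at -0.60, -0.37 and -0.44. BTC ran from -0.14 in number 3 to 3.91 in number 2.

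Levels of different genes were compared per length, in the deposited FPKM. In control cells HBEGF was highest at 29.7 ± 3.71 FPKM (SD, n = 3), and every one of its libraries exceeded all libraries of the next gene, EREG (15.6 ± 6.51). EREG and EGFR (9.60 ± 1.62) overlapped, as did EGFR and AREG (8.11 ± 0.592). A lower group followed, with TGFA (4.45 ± 1.04), NRG1 (3.64 ± 0.609) and ERBB2 (3.50 ± 1.06), in which neighbours overlapped. ERBB3 (0.321 ± 0.0455) and BTC (0.227 ± 0.140) overlapped near the bottom, and EGF (0.103 ± 0.0402) was lowest. In CYT-treated cells HBEGF (21.7 ± 2.97) was again above every library of EREG (9.83 ± 6.37), and every neighbouring pair below overlapped except ERBB3 and EGF at the end of the order. EGFR ranked 3 in control and 6 after CYT, at 1.53 ± 0.604 FPKM, next to ERBB2 at 1.97 ± 0.880 FPKM.

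Within the summed FPKM of the 3 receptors, EGFR made up 71.5 ± 7.83% in control and 38.2 ± 5.77% in CYT-treated cells (SD, n = 3 each). ERBB2 made up 26.1 ± 7.44% and 48.2 ± 6.83%, and ERBB3 2.43 ± 0.543% and 13.5 ± 6.52%. The sum itself was 13.4 ± 1.75 FPKM in control and 3.99 ± 1.38 FPKM in CYT-treated cells. The larger share of ERBB2 after CYT went with a mean level that was not larger. Among the 6 EGFR ligands, HBEGF gave the greatest share in both groups, 51.4 ± 6.64% and 54.3 ± 9.78%, and the summed level was 58.2 ± 8.93 and 41.2 ± 11.0 FPKM. These shares are descriptions and were not tested.

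**Figure D4:**
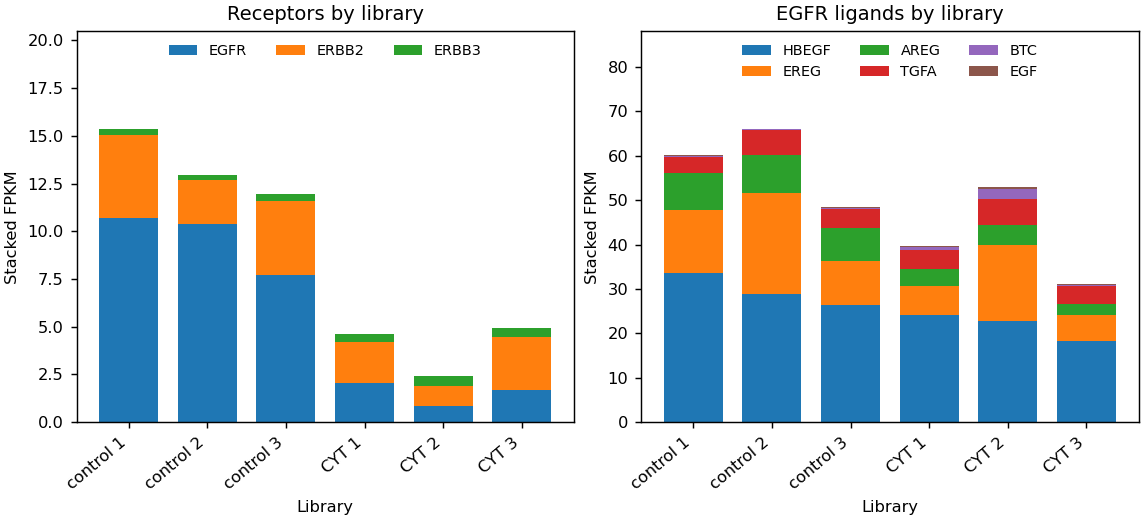
Deposited FPKM in each library, stacked for the 3 receptors (left) and for the 6 ligands of EGFR (right), with both axes starting at 0. The receptor sum is 13.4 FPKM on average in control and 3.99 FPKM in CYT libraries, with EGFR as the blue part that shrinks, while HBEGF stays the largest ligand in each library.

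By the root mean square difference of mean-centred log2 CPM over the 6 libraries, among genes with a mean of at least 5 CPM, the genes most like EGFR were TBL1X (0.104), ADAP1 (0.124) and LAT2 (0.128). Their log2 fold changes were -2.61, -2.51 and -2.46. These libraries form 2 groups, so the likeness rests largely on the difference between them and is given as a description.

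Other genes of the pathway were taken from a list of 69, of which 65 passed the filter on low counts and were tested. Of these, 14 were called lower and 3 higher, 26.2% in all beside 28.6% of all tested genes. Their median log2 fold change was -0.16. With the replicate number as a block 21 were called lower and 8 higher, in a fit that called 39.9% of all tested genes. Of the 5 remaining family members, ERBB4 had at most 10 counts in a library, NRG4 at most 11, NRG3 at most 6 and EPGN at most 2, and these 4 did not pass that filter. NRG2, a relative of NRG1, was called lower (11.5 ± 4.45 CPM in control and 4.02 ± 1.43 CPM in CYT-treated cells, edgeR adjusted p = 0.0279).

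Of 5 genes for ligand shedding, 1 was called higher and 0 lower (1 and 1 with the block), or 20% beside 28.6% of all tested genes. RHBDF1, or iRhom1, which escorts ADAM17 to the surface, was the called gene (30.8 ± 0.958 against 104 ± 58.4 CPM, log2 fold change 1.76, edgeR adjusted p = 0.0177). Its paralogue RHBDF2, or iRhom2, was at 63.8 ± 14.4 CPM in control and 27.5 ± 13.9 CPM after CYT with no overlap of the groups, and was not called (log2 fold change -1.22, edgeR adjusted p = 0.0621). It was called lower in 6 of the 13 alternative fits, the block among them (edgeR adjusted p = 0.0104). ADAM17, the main protease that releases AREG, EREG, HBEGF and TGFA, was at 36.8 ± 5.91 and 40.4 ± 18.6 CPM and was not called (edgeR adjusted p = 0.817).

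Among 12 receptor inhibitors and ubiquitin ligases, 4 were called lower and 1 higher, with the same counts under the block. This is 41.7% called in the main fit, beside 28.6% of all tested genes, and the difference was not tested. ERRFI1, or MIG6, which binds and blocks the kinase domain of EGFR, was at 247 ± 27.8 CPM in control and 79.3 ± 32.8 CPM in CYT-treated cells (log2 fold change -1.64, edgeR adjusted p = 0.00730). RNF41, a ubiquitin ligase for ERBB3, had 66.0 ± 2.78 and 23.3 ± 4.08 CPM (log2 fold change -1.50, edgeR adjusted p = 0.00484). LRIG1, a membrane protein that promotes the loss of EGFR family receptors, went the other way, from 22.5 ± 0.953 to 68.0 ± 6.09 CPM (log2 fold change 1.60, edgeR adjusted p = 0.00305). All 3 kept their call in each of the 13 alternative fits. The list thus held inhibitors that rose and inhibitors that fell.

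All 9 genes of receptor endocytosis and sorting had an estimate below 0, as did 49.7% of all tested genes, with a median of -0.60. Under upper-quartile scaling SNX1 (0.10) and TSG101 (0.023) were above 0, and SNX1 was above 0 in 3 of the 13 alternative fits. In this group 2 genes were called lower and 0 higher (4 and 0 with the block), or 22.2% beside 28.6% of all tested genes. They were STAM2 (21.6 ± 6.66 against 8.52 ± 3.04 CPM, edgeR adjusted p = 0.0262) and HGS (329 ± 134 against 131 ± 44.7 CPM, edgeR adjusted p = 0.0332), which work together in sorting ubiquitinated receptors to lysosomes.

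Of 16 adaptors and proximal signalling genes, 2 were called lower and 0 higher, or 12.5% beside 28.6% of all tested genes. With the block 2 were called lower and 3 higher, the latter being GRB2 (log2 fold change 0.92, edgeR adjusted p = 0.0182), SOS2 (0.72, 0.0398) and GAB1 (1.07, 0.0348). GAB2, a docking protein that recruits PI3K and SHP2, dropped from 31.4 ± 3.95 to 3.80 ± 1.14 CPM (log2 fold change -3.04, edgeR adjusted p = 0.000748), and STAT5B from 91.1 ± 16.9 to 49.8 ± 6.59 CPM (edgeR adjusted p = 0.0484). In the RAS, RAF, MEK and ERK group 2 of 10 genes were called lower and 0 higher, 20% in all (4 and 1 with the block). The lower genes of the main fit were HRAS (186 ± 28.1 against 78.5 ± 21.7 CPM, edgeR adjusted p = 0.0157) and ARAF (43.5 ± 14.9 against 15.8 ± 6.64 CPM, edgeR adjusted p = 0.0290). In the PI3K and AKT group 3 of 12 were called lower and 1 higher, 33.3% in all (5 and 2 with the block). PIK3R3, a regulatory subunit of PI3K, rose from 9.69 ± 1.50 to 72.7 ± 8.70 CPM (log2 fold change 2.91, edgeR adjusted p = 0.000521), while PIK3CB, a catalytic subunit, fell from 25.0 ± 7.39 to 9.23 ± 2.64 CPM (edgeR adjusted p = 0.0165). GAB2 and PIK3R3 were called in all 13 alternative fits.

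Several of these genes missed the threshold when a library was left out, while their estimates moved little. Over all 39 such cases in 12 called genes of the list, the sign was the same and the log2 fold change was 0.733 to 1.17 times that with all libraries. Without control replicate 1, edgeR's adjusted p was 0.0704 for NRG2, 0.0610 for RHBDF1, 0.118 for HGS, 0.163 for STAT5B, 0.0601 for HRAS and 0.104 for ARAF. Without control replicate 2 it was 0.0544 for RHBDF1, 0.0742 for STAM2 and 0.0819 for STAT5B. Without control replicate 3 it was 0.110 for NRG2, 0.0698 for RHBDF1, 0.0927 for HGS, 0.0516 for STAM2, 0.0896 for STAT5B and 0.0775 for ARAF. Leaving out CYT replicate 1 gave 0.0693 for NRG2, 0.0504 for RHBDF1, 0.0914 for HGS, 0.0894 for STAM2, 0.136 for STAT5B and 0.0566 for HRAS. Leaving out CYT replicate 3 gave 0.0661 for RHBDF1, 0.0942 for STAM2, 0.0899 for STAT5B, 0.0590 for ARAF and 0.0660 for PIK3CB. With all libraries, STAT5B also lost its call under upper-quartile scaling (edgeR adjusted p = 0.0842), without a filter (0.0635) and at a minimum mean of 5 CPM (0.0743), and STAM2 with limma on log2(FPKM + 1) (0.0504).

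**Figure D5:**
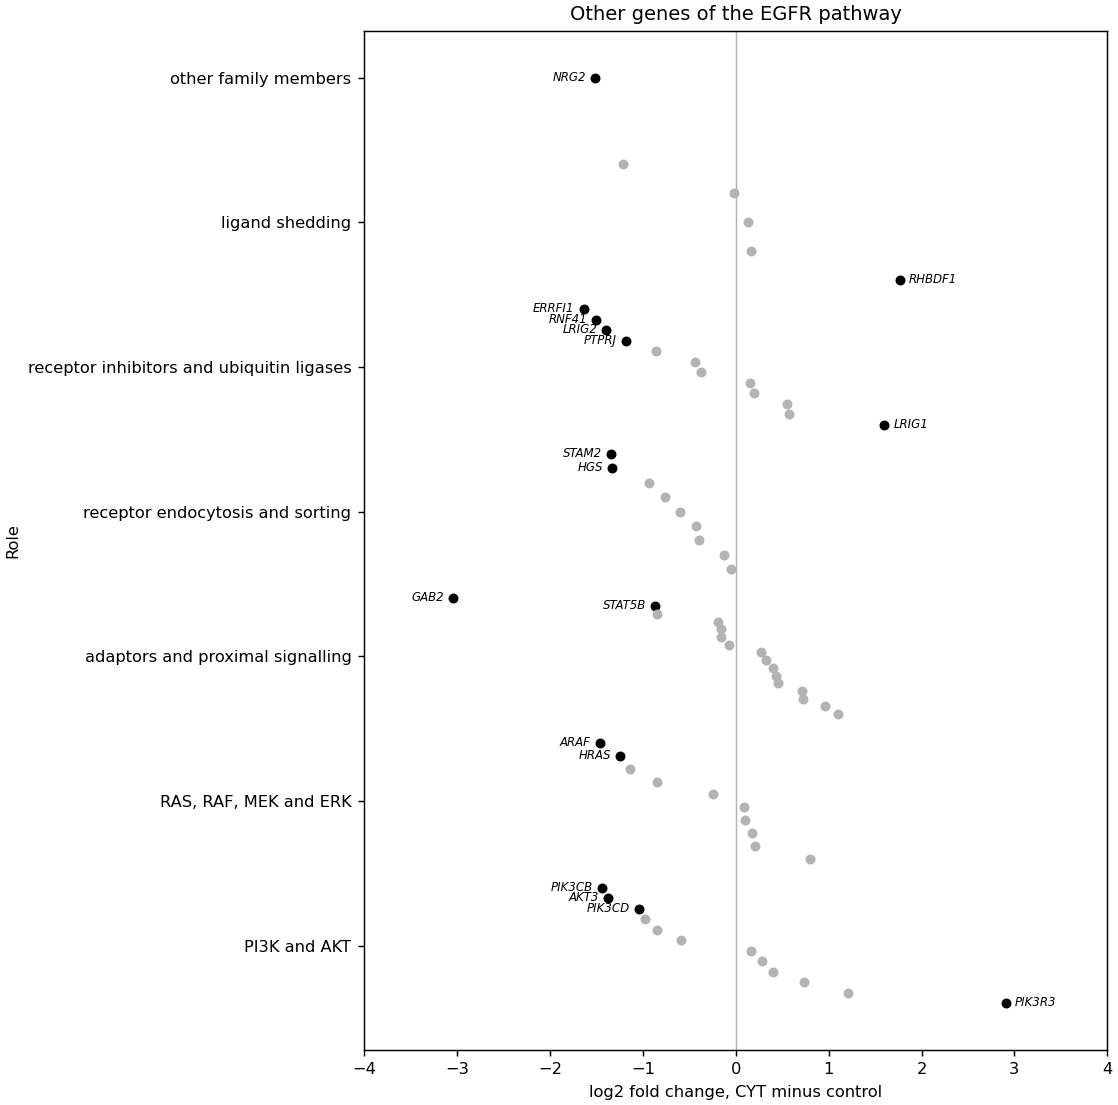
Log2 fold change, CYT minus control, of the 65 tested genes of the EGFR pathway other than the 10 family members, grouped by role, in black with the gene name where the adjusted p was under 0.05 and in grey otherwise. GAB2 (-3.04) lies furthest to the left and PIK3R3 (2.91) furthest to the right.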

How the data were processed

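The authors separated mRNA from MDA-MB-231-DR cells (3 control and 3 CYT libraries) and read it on an Illumina NovaSeq instrument. Reads of low quality, adapter or rRNA origin were discarded before alignment with Hisat2. The submitters' processing notes name hg38 and FastQC 0.12.1. The deposited table holds raw counts per gene, whose counting program, annotation and use of strand are not given in the sources used here. It also holds FPKM values that the authors ascribe to Stringtie. The ratio of both units gave each gene 1 length, with a spread between libraries of at most 0.00209% over the 10160 genes whose counts were never under 50.

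Groups and replicate numbers came from the sample titles. The labels do not say whether replicates were separate cultures, and the study's general remark on independent experiments does not name the sequencing libraries, so p-values may measure technical spread. No pair of replicates was a duplicate (chi-square per gene of 24.8 or more). Counts were filtered with filterByExpr (minimum count 10), scaled by TMM and fitted with edgeR 4.0.16 in R 4.3.3 (glmQLFit and glmQLFTest, CYT against control, common biological coefficient of variation 37.5%). A standard error is the absolute log2 fold change over the square root of F. The procedure was tested on simulated counts. Alternatives were DESeq2 1.42.0, upper-quartile scaling, 2 other filters, limma 3.58.1 with FPKM (log2, pseudocounts 1 and 0.1), the replicate number as a block, and each library left out. Pairing was checked from the labels' replicate numbers and these data. Deviations of same-numbered libraries from their group means had r of 0.188, 0.458 and 0.124 across genes. Each was over 0.1, and the replicate number was used as a block in an alternative fit only. Control 1 with CYT 3 gave 0.303 and control 3 with CYT 1 gave 0.201, above the values of numbers 1 and 3. Deviations within a group depend on each other, so these r are not independent. Pairing of numbers 1 and 3 was thus not shown.

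All 10 members are named. Of the pathway list, the 2 genes with the smallest adjusted p among those called in each role are named, with ERBB4, ADAM17, ERRFI1 and LRIG1, and for EGFR the 3 genes with the most similar pattern. The remaining untested family members were named for their low counts, and MIEN1, PGAP3, EGFR-AS1, RHBDF2, SNX1, TSG101, GRB2, SOS2, GAB1 and the genes of the observations after their values were seen. Members and lists were chosen with earlier results of these data known. Promoter windows came from RefSeq, with motif positions computed on the 250 bases before the start.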

Additional observations from a re-analysis of the deposited data

How the results depend on the processing

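The number of members called, 3, was 2 to 4 with a library left out and 5 with the replicate block. The number of pathway genes called, 17, was 29 with the block and 8 to 22 with a library left out, where fewer libraries were fitted. Over all genes 4451 were called, 6209 with the block (39.9%) and 2891 to 5752 with a library left out. The block moved ERBB2 (-0.91) and EREG (-0.79) past the threshold and changed no other call of a member. BTC passed it with upper-quartile scaling (2.29), DESeq2 (2.16) and no filter (2.04), and its log2 fold change was 1.06 to 2.72 with a library left out. Over the same fits that of AREG, which lost its call in 4, was -1.30 to -1.02, that of EREG -1.31 to -0.43, that of ERBB2 -1.19 to -0.50 and that of TGFA, which changed sign in 3, -0.11 to 0.18. Without a filter TGFA was -0.028. The cause was not tested. Upper-quartile scaling moved the median of all genes from 0.0064 to 0.16, and the signs of EGFR, NRG1 and AREG held in every fit. EGF and BTC were at low levels, and a mean of at least 5 CPM removed them. ERBB4, EPGN, NRG3 and NRG4 passed no filter on low counts and were not called without one (edgeR adjusted p from 0.229 to 0.945).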

Other observations

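EGFR was also placed among the receptor tyrosine kinases, a list of 58 genes written after the data were seen. Of 33 that were tested, 7 were called lower and 6 higher (39.4% called, beside 28.6% of all tested genes), and EGFR had the largest estimated fall, next to PDGFRB (log2 fold change -2.54, edgeR adjusted p = 0.0129) and ROR1 (-2.08, edgeR adjusted p = 0.0103). The difference between these 3 was not tested. Per length, EGFR ranked 4 of the 33 in control and 17 in CYT-treated cells. EPHA2 (178 ± 31.6 FPKM in control and 76.7 ± 26.4 FPKM after CYT, SD, n = 3 each) and AXL (114 ± 3.04 and 65.3 ± 6.91 FPKM) were the most abundant receptors in both groups, and both were called lower (edgeR adjusted p = 0.0322 and 0.0444). EPHA4, an ephrin receptor, rose, with 69, 72 and 47 counts in control and 872, 1794 and 792 in CYT libraries (log2 fold change 4.45, edgeR adjusted p = 0.000335). FLT3 and RET had 0 counts in every control library, against 23, 77 and 20 for FLT3 and 13, 11 and 13 for RET in CYT libraries. These genes were chosen after their values were seen, and only EGFR among them was followed through the alternative fits.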
